A study of Homo sapiens with 26 samples.

Results

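The subject is the transcriptional response of AsPC-1 cells to loss of HNF4A, the gene of the nuclear receptor HNF4α. AsPC-1 is an established human pancreatic ductal adenocarcinoma line. CRISPR interference, in which a guide RNA brings an inactive Cas9 repressor to a promoter, was used to silence both isoform classes of the gene at once. Of the 26 RNA-sequencing libraries of the study, 6 belong to this comparison and were chosen by their genotype and line labels. Guide sgDual2 gave 2 libraries and guide sgDual3 gave 2, which together form the sgDual group of 4. The control guide sgNC gave 2 libraries. All 6 carried a guide and were grown in RPMI-1640 medium with serum. The other 8 AsPC-1 libraries carried guides against the P1 isoforms alone (sgP1E and sgP1J) or the P2 isoforms alone (sgP2D and sgP2G), 4 for each target. The remaining 12 libraries came from Panc10.05 and BxPC3, which are pancreatic cancer lines of the opposite design, with a doxycycline-inducible HNF4α isoform (P1-a2 or P2-a8) or a control construct (NC). BxPC3 cells received 500 ng/mL of doxycycline in all groups. In Panc10.05 the dose was 12.5 ng/mL for P2-a8 and 25 ng/mL for the P1-a2 and NC lines, so isoform and dose changed together in that line. Whether the repressed or induced lines were clones or pools was not given in the labels.

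HNF4α binds DNA as a dimer at direct repeats and activates genes of absorptive and secretory epithelia. It is best known for hepatocyte, enterocyte and pancreatic identity, where it keeps lipoprotein, transport and microvillus genes on. Transcripts of the gene start at a pair of promoters, P1 and P2, and the counts used here add both classes.

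The 6 libraries held between 31394018 and 37015709 counts. Mitochondrial genes took 9.23% to 9.88% of the counts with sgDual and 8.37% to 9.24% with sgNC. On the first principal component of all 14 AsPC-1 libraries, which carried 45.6% of the variance, the 4 sgDual libraries lay between 52.1 and 59.0 and the other 10 between -36.1 and -1.46. The labels do not say whether the replicates of a guide were separate cultures, so the p-values measure only the spread between these libraries. The epithelial label was checked against 7 markers of that type, whose summed level was 11290 to 15970 CPM (counts scaled to a common library size) with sgDual and 14310 to 14600 CPM with sgNC. All 10 pancreatic acinar markers and 6 of 8 islet markers were at the floor of detection, which is 3 counts in every library. The 9 fibroblast markers listed summed to 280 to 301 CPM with sgDual and 165 to 179 CPM with sgNC, with PDGFRA, THY1 and FAP at the floor in all 6 libraries. The 9 leukocyte markers listed summed to 57.8 to 83.7 and 42.5 to 50.7 CPM, with CD3E, MS4A1 and FCGR3A among those at the floor. Of the 6 fibroblast markers tested, 2 were higher with sgDual past the threshold used below (33.3%, beside 17.8% over all genes tested) and 0 were lower. Of the 3 leukocyte markers tested, 0 passed in either direction. Whether these transcripts came from other cells or from the AsPC-1 cells themselves was not tested.

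HNF4A itself (ENSG00000101076, chromosome 20, 44355700 to 44434596, plus strand of GRCh38) was examined first. Its level was 3.19 and 10.3 CPM in the sgDual2 libraries, 4.83 and 13.6 CPM in the sgDual3 libraries and 206 and 220 CPM in the sgNC libraries. Every sgDual library lay far below both controls, and in both guides replicate 1 was the lower one. The mean fell 26.5-fold, from 213 ± 9.95 CPM (SD, n = 2) to 7.99 ± 4.84 CPM (SD, n = 4), which is -4.73 on the log2 scale (SE 0.39; edgeR's quasi-likelihood test gave an adjusted p of 6.25e-06, adjusted over all genes and read against a threshold of 0.05). The 2 guides did not differ past the threshold in this gene (log2 difference -0.46, adjusted p 0.972), and the sign of their difference turned to 0.16 without sgDual2 replicate 1 and to 0.48 without sgDual3 replicate 2. Guides for both isoform classes left less HNF4A than guides for 1 class. The sgDual level was below sgP1, at 129 ± 18.4 CPM (SD, n = 4), by a log2 fold change of -4.01 (adjusted p 8.53e-06). It was below sgP2, at 86.5 ± 7.74 CPM (SD, n = 4), by -3.43 (adjusted p 1.16e-05). Against sgNC, neither single target was past the threshold in this gene by the same test. The log2 fold changes were -0.72 for sgP1 (adjusted p 0.615) and -1.30 for sgP2 (adjusted p 0.0751). Both means were nevertheless below the 213 CPM of sgNC. The test takes its spread from all 14 AsPC-1 libraries, with the sgDual values of 3.19 to 13.6 CPM among them. A missed threshold here is therefore not a sign that the level was unchanged.

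HNF4G, the paralogous receptor, was at 28.9, 36.1, 24.7 and 29.7 CPM with sgDual and at 30.3 and 44.6 CPM with sgNC, and its change was not past the threshold (log2 fold change -0.33, adjusted p 0.246). The antisense gene HNF4A-AS1 had 0 counts in these libraries. R3HDML-AS1, a non-coding gene whose annotated span lies just upstream of the P2 start (chromosome 20, 44347552 to 44355185), was at 2.22 and 2.12 CPM with sgNC and between 0 and 0.0817 CPM with sgDual. That puts it at least 25.2-fold lower with sgDual, computed against the floor of 3 counts per library. Other genes close by gave OSER1-DT, PKIG and SERINC3 higher (log2 fold changes 1.08, 0.80 and 0.32) and ADA lower (-0.83), all past the threshold, whereas TTPAL was not (-0.03). PKIG lost its call without either sgNC library (adjusted p 0.00717 to 0.104 over the alternatives), SERINC3 without sgNC replicate 1 or guide sgDual2 (0.000867 to 0.131) and ADA without sgNC replicate 2 (0.000173 to 0.0619).

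Across the transcriptome, 6048 of 16992 genes tested (35.6%) passed an adjusted p of 0.05, 3018 higher and 3030 lower with sgDual (17.8% each). The equal counts hid unequal sizes. The median log2 fold change was 0.73 among the genes called higher and -0.48 among those called lower, beside 0.001 over all genes tested. By at least 1 on the log2 scale, 1078 genes rose (6.34%) and 461 fell (2.71%), 9.06% in all, and by at least 3, 89 rose and 39 fell. In 59.5% of the genes tested the sgDual and sgNC libraries did not overlap, with every sgDual library above both controls in 29.8% and below both in 29.7%. Of the genes called higher, 89 had sgNC at the floor, and 14 of those called lower had sgDual at the floor, so that their fitted sizes are not exact. The count rests partly on 1 control library: without sgNC replicate 1 it was 2775 (1408 higher and 1367 lower), and without sgNC replicate 2 it was 4590. Gene lists below are counted over the members that passed the filter on low counts, which were 30 of 39 brush border genes, 37 of 50 transporters, 28 of 42 NF-kB genes and 21 of 36 basal-like genes among others. The count of every list is to be read against the 17.8% each way over all genes tested. In the bulk RNA measured here, fewer cells of a kind and less RNA per cell cannot be told apart.

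**Figure D1:**
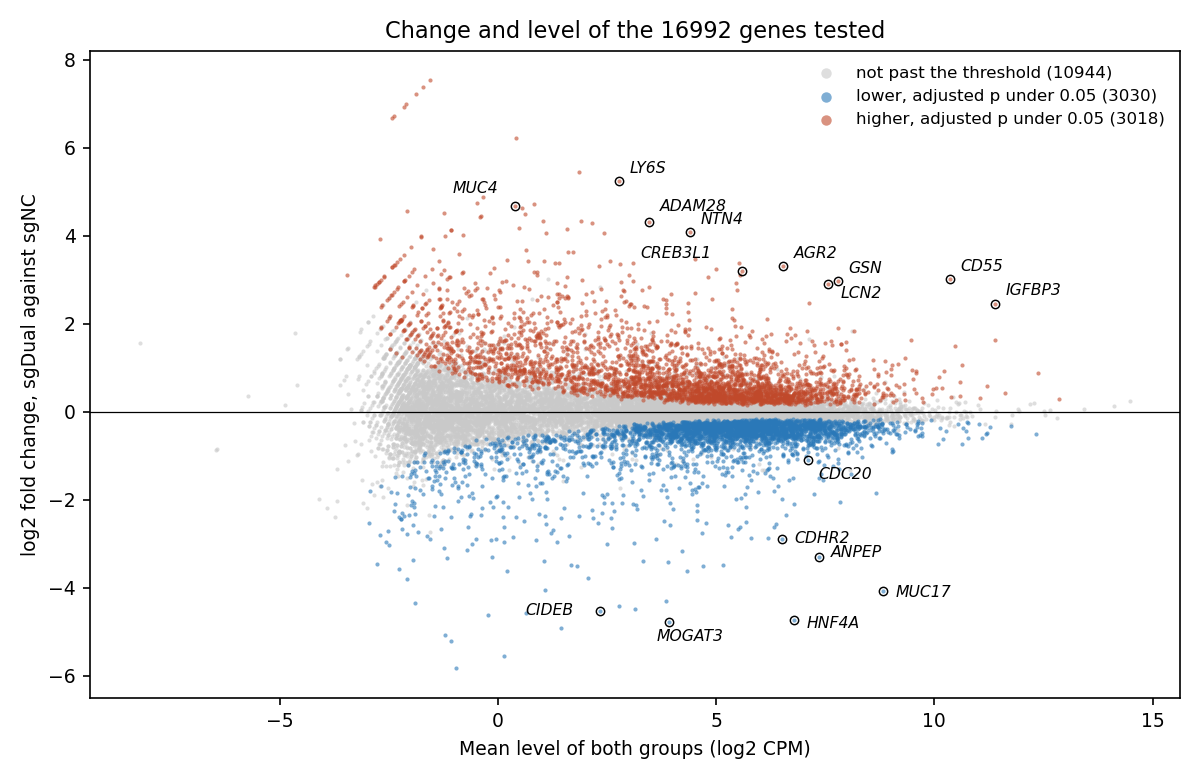
Log2 fold change of sgDual (n = 4) against sgNC (n = 2) on the vertical axis and the mean level of both groups in log2 CPM on the horizontal axis, 1 point per gene tested, coloured by direction where the adjusted p was under 0.05. The 3018 higher and 3030 lower genes are about equal in number, and more of the large changes at low levels point upwards.

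The 20 largest falls, among genes with a mean of at least 5 CPM and no overlap between groups, started with MOGAT3, HNF4A and CIDEB. MOGAT3, an acyltransferase that makes diacylglycerol (chromosome 7, 101195007 to 101201038), was at 0.861 and 1.5 CPM with sgDual2, 0.746 and 1.12 CPM with sgDual3 and 30.9 and 27.3 CPM with sgNC. It was 27.4-fold lower (log2 fold change -4.78, SE 0.31, adjusted p 5.00e-07). CIDEB, a lipid droplet protein that works in lipoprotein secretion, was at 0.230, 0.664, 0.179 and 0.599 CPM in the sgDual libraries and at 9.16 and 10.4 CPM with sgNC. Its level was 23.1-fold lower (log2 fold change -4.53, SE 0.29, adjusted p 1.23e-07). CIDEC, of the same family, fell 10.7-fold, from 27.5 to 2.56 CPM (adjusted p 4.34e-09). For all 3 genes the highest sgDual library was far under the lowest control.

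MUC17, a membrane mucin of the enterocyte surface (chromosome 7, 101020072 to 101058745), had the largest loss in absolute level among these falls. It was at 29.4 and 68.0 CPM with sgDual2, 37.1 and 70.7 CPM with sgDual3 and 900 and 823 CPM with sgNC. This is a 16.8-fold fall (log2 fold change -4.07, SE 0.32, adjusted p 4.18e-06), and replicate 1 of each guide was again the lower one. AZGP1, a secreted glycoprotein tied to lipid breakdown, also lies on chromosome 7 and fell 19.7-fold, from 27.3 to 1.38 CPM. CLDN2, the pore-forming claudin of leaky epithelia, fell 11.3-fold (47.8 to 4.21 CPM), and SLC9A2, a sodium-proton exchanger, fell 9.0-fold (33.5 to 3.72 CPM). PRODH2, a mitochondrial dehydrogenase of hydroxyproline breakdown, fell 10.5-fold (18.2 to 1.74 CPM). ADIRF, an adipogenesis factor, fell 12.3-fold, and both sgDual3 libraries (4.30 and 3.54 CPM) were above both sgDual2 libraries (2.15 and 2.14 CPM; difference between guides adjusted p 0.00628). That difference was not past the threshold without sgDual2 replicate 1, sgDual2 replicate 2 or sgDual3 replicate 1 (7.09e-05 to 0.109 over the alternatives). TMEM150B, TTBK1, TM4SF20, C11orf86, DPEP1 and GPA33 made up the rest with the brush border genes described next.

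**Figure D2:**
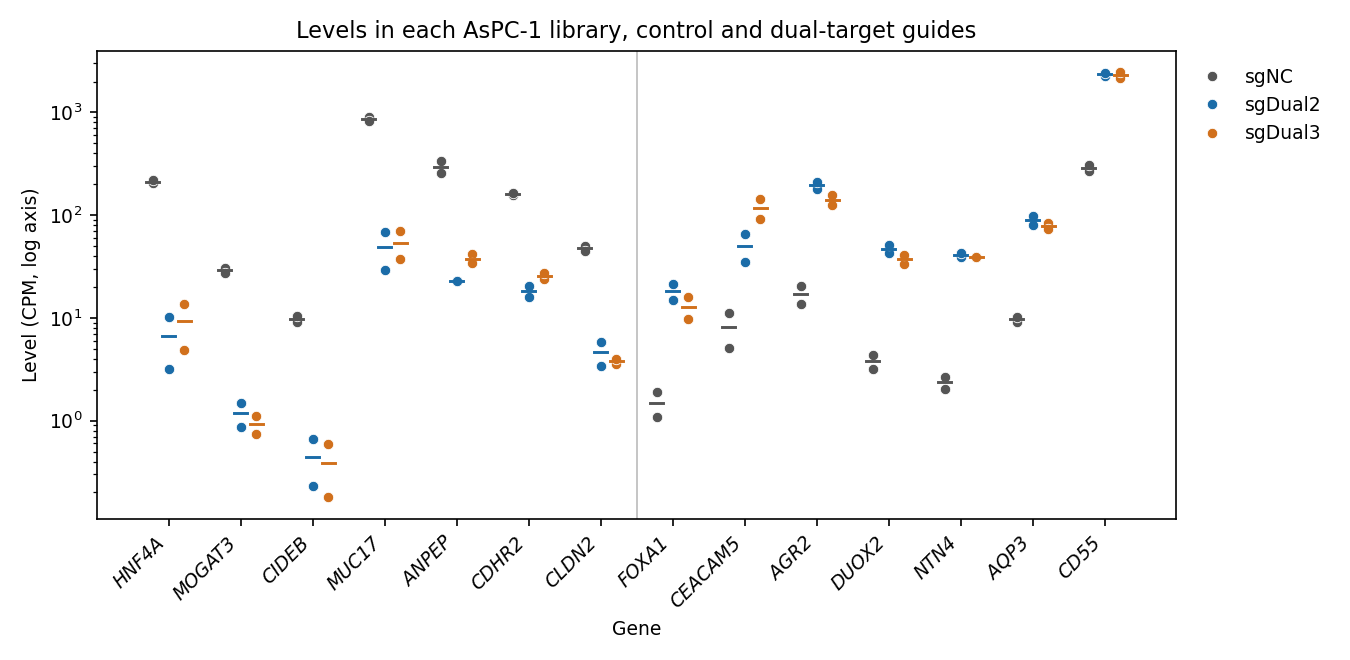
Level in CPM on a log axis of 14 genes in each of the 6 libraries, with a bar at the mean of each guide. The 7 genes to the left of the grey line were lower in all 4 sgDual libraries than in both sgNC libraries, and the 7 to the right were higher in all 4.

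The brush border is the carpet of microvilli on absorptive cells, held together by an adhesion complex of protocadherins, a myosin and scaffold proteins. Of 30 tested genes listed for it, 17 fell (56.7%, against 17.8% over all genes) and 2 rose, with a median log2 fold change of -1.12. CDHR2, a protocadherin of the complex, was at 16.1 and 20.4 CPM with sgDual2, 23.7 and 27.2 CPM with sgDual3 and 156 and 166 CPM with sgNC (7.37-fold lower, log2 fold change -2.88, adjusted p 2.17e-08). Its partners fell with it: ANKS4B, a scaffold, 11.2-fold (65.4 to 5.83 CPM), MYO7B, the motor, 7.27-fold (98.2 to 13.5 CPM), and USH1C, the harmonin scaffold, 2.94-fold (152 to 51.7 CPM). ANPEP, the aminopeptidase N of the microvillus membrane, was at 22.6, 23.1, 41.7 and 34.0 CPM with sgDual and at 338 and 256 CPM with sgNC (9.77-fold lower, adjusted p 0.000133). MYO1A, which ties the actin core to the membrane, fell by 2.63 on the log2 scale, and COBL, EPS8L3 and BAIAP2L2, which act on microvillus actin, fell by 1.21, 1.47 and 1.43. The general membrane linker EZR (-0.01, adjusted p 0.922) and the peptidase DPP4 (-0.11, adjusted p 0.681) did not pass the test. The 2 rises were ACE and MYO1D. Neither was past the threshold without sgNC replicate 1, nor ACE without sgNC replicate 2 or without guide sgDual3 (adjusted p over the alternatives 0.00572 to 0.112 for ACE and 0.000411 to 0.155 for MYO1D).

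Membrane transporters of intestine, liver and kidney moved in both directions, with 20 of 37 lower (54.1%) and 9 higher (24.3%), and a median log2 fold change of -0.85. SLC9A3, the apical sodium-proton exchanger, was at 11.2 and 11.6 CPM with sgDual2, 16.3 and 14 CPM with sgDual3 and 86 and 75.8 CPM with sgNC (log2 fold change -2.61, adjusted p 2.09e-05). ABCC2, an export pump for conjugates, fell 3.67-fold (237 to 64.7 CPM). SLC22A3, an organic cation transporter, fell 3.24-fold (130 to 40.3 CPM), and SLC15A1, the peptide transporter, 2.31-fold (249 to 108 CPM). SLC7A9 and SLCO2B1, carriers of amino acids and organic anions, fell from 2.98 to 0.122 CPM and from 3.23 to 0.421 CPM. The opposite direction was taken by SLC6A20, an amino acid transporter, which was at 261, 238, 294 and 280 CPM with sgDual and at 78 and 104 CPM with sgNC (2.95-fold higher, adjusted p 8.73e-06). The counts without sgNC replicate 1 were 15 lower and 3 higher, and without sgNC replicate 2 they were 14 and 6.

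Genes of lipid packaging gave 11 lower and 1 higher of 19 tested (57.9% lower, median -0.44). Beside MOGAT3, CIDEB and CIDEC, the falls included ACSL5, which activates fatty acids (399 to 150 CPM, log2 fold change -1.42), and TM4SF5, a membrane protein (24.7 to 5.90 CPM, -2.06). DGAT2 and DGAT1, which complete triglyceride synthesis, fell by 0.77 and 0.44. The classical liver targets APOA1, APOA2, APOB, APOC3 and MTTP were too low to be tested, so the data say nothing about them. The single rise was CD36, a fatty acid receptor, from 0.176 to 1.22 CPM, and its log2 fold change moved from 2.77 to 3.63 without sgNC replicate 2. In cholesterol and fatty acid synthesis SCD (-0.16) did not pass. That list had 7 lower (19.4%) and 2 higher (5.56%) of 36, with a median of -0.12, beside 17.8% each way over all genes tested. Of its members 3 were lower without sgNC replicate 1 or sgNC replicate 2, and 1 was higher without sgNC replicate 1 or any 1 sgDual library.

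Among other metabolic genes, glycolysis and gluconeogenesis gave 14 lower and 6 higher of 31 (median -0.20). CA9, a carbonic anhydrase of hypoxic cells, was at 11.4, 13.4, 9.28 and 10.8 CPM with sgDual and at 58.4 and 74.6 CPM with sgNC (5.92-fold lower, adjusted p 0.000370). KHK, the fructose kinase, fell 4.60-fold (15 to 3.26 CPM), and LDHA, lactate dehydrogenase, fell by 0.59 on the log2 scale. PFKFB2, which drives phosphofructokinase, rose 2.93-fold (61.7 to 181 CPM) and ENO2 rose by 1.39. Fatty acid oxidation and ketogenesis moved both ways, with 10 lower (27.0%) and 8 higher (21.6%) of 37, and the ketone body enzyme BDH1 fell from 89.1 to 34.1 CPM (-1.39). Without sgNC replicate 1 these lists gave 8 lower and 4 higher, and 5 lower and 0 higher. Without sgNC replicate 2 glycolysis gave 3 higher, and fatty acid oxidation gave 5, as it did without either sgDual3 library, and 4 without sgDual2 replicate 2. In drug metabolism, with 5 lower and 6 higher of 30, the carboxylesterase CES2 fell 2.19-fold (139 to 63.2 CPM) and the epoxide hydrolase EPHX1 rose 3.03-fold (73.0 to 221 CPM). That list, without sgNC replicate 1, gave 4 lower and 3 higher.

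Transcription factors that set epithelial lineage split evenly, with 8 of 31 lower (25.8%), 7 higher (22.6%) and a median of -0.03. Over all genes tested the share was 17.8% each way. The xenobiotic receptor NR1I2 fell 5.63-fold (87.2 to 15.5 CPM), the vitamin D receptor VDR 2.73-fold (60.7 to 22.3 CPM), and CREB3L3, a factor of liver and gut, 2.35-fold (290 to 123 CPM). PDX1, a regulator of pancreas and duodenum, fell by 0.76, but not past the threshold without sgNC replicate 2 (adjusted p 0.000241 to 0.0529 over the alternatives). FOXA1, a pioneer factor of endoderm, went the other way, from 1.08 and 1.89 CPM with sgNC to 15, 21.4, 9.82 and 15.9 CPM with sgDual (10.4-fold higher, SE of the log2 fold change 0.55, adjusted p 0.000546). GATA6 and KLF4 rose by 0.63 and 0.53 on the log2 scale. EHF (-0.03) and KLF5 (0.11) did not pass. The list without sgNC replicate 1 gave 6 lower and 3 higher, and without sgNC replicate 2 6 and 4.

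Promoters of the genes that fell were read for letters of the HNF4 site, since HNF4A was reduced. The windows below are RefSeq reference sequence of GRCh38.p14, 5′ to 3′ on the strand of the gene, with the matching letters in capitals. The HNF4 letters searched on both strands were CAAAGTCCA, CAAAGTTCA and CAAAGGTCA, which do not overlap one another. CIDEB belongs to the 20 largest falls, and MYO1A, TM4SF5 and BDH1 were added after their values were seen, to show further matches in genes described above.
CIDEB (chr14:24308014-24308042, minus strand): tccctcccctTGGACTTTGcccttcttac
MYO1A (chr12:57050130-57050204, minus strand): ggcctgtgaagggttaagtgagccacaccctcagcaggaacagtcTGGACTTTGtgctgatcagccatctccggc
TM4SF5 (chr17:4771784-4771882, plus strand): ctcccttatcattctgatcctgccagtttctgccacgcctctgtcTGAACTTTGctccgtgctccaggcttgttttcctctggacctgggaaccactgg
BDH1 (chr3:197573385-197573483, minus strand): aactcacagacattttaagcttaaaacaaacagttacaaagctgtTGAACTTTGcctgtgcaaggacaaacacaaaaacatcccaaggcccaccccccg

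The matched letters end 47 bases before the annotated start in CIDEB, 22 in MYO1A, 49 in TM4SF5 and 87 in BDH1. Each match shown lies on the opposite strand of its gene. The search covered 250 bases before to 50 after each start. Any of the 3 HNF4 forms was present in 19 of 285 promoters of genes that fell by at least 1 on the log2 scale (6.67%), in 8 of 738 promoters of genes that rose by as much (1.08%), in 138 of 11366 promoters of genes tested (1.21%) and in 365 of all 27305 promoters (1.34%). With no limit on size, the share was 36 of 2363 promoters of genes called lower (1.52%) and 18 of 2244 of genes called higher (0.802%). Among genes not past the threshold it was 84 of 6759 (1.24%). Only 285 of the 461 genes that fell by at least 1 had a promoter in the table, under the 80% set for such a check. The comparison of shares is therefore void and describes the matched promoters alone. Of the 20 largest falls 1 (CIDEB) and of the 20 largest rises 0 held an HNF4 form, over 18 and 15 matched promoters.

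The 20 largest rises were chosen by the same rule. LY6S, a small surface protein gene, was at 8.06 and 9.56 CPM with sgDual2, 16.1 and 19.7 CPM with sgDual3 and 0.222 and 0.482 CPM with sgNC (37.7-fold higher, adjusted p 0.000189). Its log2 fold change was 5.24, and 5.89 without sgNC replicate 2. ADAM28, a metalloprotease, was at 21.1, 26.2, 16.4 and 20.7 CPM with sgDual and at 1.08 and 1.03 CPM with sgNC. Its log2 fold change was 4.32 (SE 0.41, adjusted p 6.25e-06). The secreted guidance proteins NTN4 and NTN1 rose 16.9-fold (2.36 to 40.0 CPM) and 10.7-fold (1.01 to 10.8 CPM), and the guidance receptor EPHA4 rose 8.66-fold. The 4 sgDual libraries of NTN4 lay between 38.8 and 43.2 CPM, a narrow range for so large a change.

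CD55, which shields cells from complement, had the largest gain in absolute level among these rises, from 272 and 307 CPM with sgNC to 2274, 2445, 2183 and 2477 CPM with sgDual (8.10-fold, log2 fold change 3.02, SE 0.16, adjusted p 1.91e-08). GSN, the actin-severing protein gelsolin, was at 398, 380, 391 and 394 CPM with sgDual and at 45.1 and 54.7 CPM with sgNC (7.83-fold higher, adjusted p 2.09e-07). AQP3, a water and glycerol channel, rose 8.65-fold (9.71 to 84.1 CPM), and SYNPO, an actin-associated protein, 9.51-fold (6.08 to 57.9 CPM). CYP26B1, which breaks down retinoic acid, rose 16.6-fold, and PTHLH, a secreted hormone-like peptide, 8.30-fold. TRIM29, CORO6, SOSTDC1 and S100P completed the group with the secretory genes described next. Of the 20 falls, 8 overlap an annotated gene on the other strand (HNF4A, CIDEB, ADIRF, CLDN2, ANKS4B, CDHR2, GPA33 and MYO7B), as do 12 of the 20 rises. The counting strand is not given, so their values may hold reads of the partner.

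Secretory and classical ductal markers gave 11 higher and 7 lower of 27 (median 0.68). AGR2, an endoplasmic reticulum protein of mucus cells, was at 180 and 210 CPM with sgDual2, 126 and 156 CPM with sgDual3 and 13.6 and 20.3 CPM with sgNC (9.90-fold higher, log2 fold change 3.31, SE 0.56, adjusted p 0.000998). CREB3L1, a membrane-bound factor of secretory cells, rose 9.24-fold (9.49 to 87.7 CPM) and REG4, a secreted lectin, 3.5-fold (7.36 to 25.8 CPM). CEACAM5, the carcinoembryonic antigen, was at 35.4, 65.3, 92.7 and 144 CPM with sgDual and at 5.10 and 11.1 CPM with sgNC, a 10.4-fold rise with a wide spread between libraries (log2 fold change 3.38, and 4.05 without sgNC replicate 2). It lost its call without sgNC replicate 1 (adjusted p 1.11e-06 to 0.0699 over the alternatives). DUOX2, the epithelial hydrogen peroxide source, rose 11.1-fold (3.80 to 42.1 CPM), though not past the threshold without either sgNC library (4.82e-06 to 0.0962). The 7 falls included LGALS4 (330 to 193 CPM), TM4SF4 (96.9 to 27.2 CPM) and CLRN3 (35.2 to 10.4 CPM). Of 10 mucins tested 3 rose and 3 fell: MUC4, a membrane mucin of tumour cells, rose from 0.0959 to 2.55 CPM, MUC3A fell by 0.52 beside the larger fall of MUC17, and MUC13 did not pass (0.19, adjusted p 0.497). CEACAM5 and its near copy CEACAM6 could share reads. The secretory list gave 5 higher without sgNC replicate 1 and 7 without sgNC replicate 2, and the mucins gave 1 higher without sgNC replicate 1 or sgDual3 replicate 1.

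Basal-like markers gave 7 higher and 2 lower of 21 (median 0.95), most of them at low levels. KRT7, a duct keratin, rose from 1.34 to 6.11 CPM and SCEL, a protein of the cornified envelope, from 0.127 to 2.96 CPM, whereas SLC2A1 and AREG were lower. AREG was not past the threshold without sgNC replicate 1 (adjusted p 1.43e-06 to 0.115 over the alternatives), nor SLC2A1 without sgNC replicate 1, sgDual2 replicate 1, sgDual2 replicate 2, sgDual3 replicate 2 or either guide, nor with no filter on low counts (0.00225 to 0.322). Genes of laminin-332 and hemidesmosomes gave 7 higher and 2 lower of 15, with ITGAV, an integrin chain, 2.07-fold higher (159 to 329 CPM) and COL17A1, a hemidesmosome collagen, lower by 0.60 on the log2 scale (2648 to 1752 CPM). Epithelial adhesion genes split, 11 higher and 10 lower of 38. CLDN4, a sealing claudin, was at 522, 558, 514 and 539 CPM with sgDual and at 218 and 256 CPM with sgNC (2.25-fold higher, adjusted p 6.20e-06), while CDH17, the liver-intestine cadherin, fell from 1979 to 1191 CPM and GJB1, a connexin, from 8.39 to 1.46 CPM. Of genes used to score epithelial to mesenchymal transition 6 rose and 6 fell of 28 (21.4% each, beside 17.8% each way over all genes tested). TPM2 and TGFBI fell by 1.85 and 0.91, S100A4 rose by 0.67, and VIM did not pass (-0.28, adjusted p 0.0765). When sgNC replicate 1 was left out, the basal-like list gave 4 higher and 0 lower, the laminin list 2 and 1, and the adhesion list 4 and 6. The laminin list gave 4 higher without sgNC replicate 2, and the falls in the basal-like and laminin lists were 1 each without sgDual2 replicate 1, sgDual2 replicate 2 or sgDual3 replicate 2.

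Antigen presentation and inflammatory genes that passed the test were higher, with few exceptions. Of 23 antigen presentation genes, 11 rose (47.8%) and 1 fell, with a median of 0.99. B2M, the light chain of class I molecules, was at 857 and 940 CPM with sgDual2, 872 and 926 CPM with sgDual3 and 361 and 410 CPM with sgNC (2.33-fold higher, log2 fold change 1.22, SE 0.15, adjusted p 4.36e-05). It was higher in every sgDual library than in either control. TAPBP, the peptide loading factor tapasin, rose 2.0-fold (83.1 to 166 CPM). The single fall was HHLA2, a ligand of the B7 family, at 12.5, 15.8, 10.8 and 10.9 CPM with sgDual and at 78.9 and 78.4 CPM with sgNC (6.29-fold lower, adjusted p 9.09e-06).

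Of 28 NF-kB chemokine and cytokine genes, 14 rose and 0 fell (median 0.66). LCN2, the iron-trapping lipocalin, was at 319, 350, 314 and 360 CPM with sgDual and at 39.7 and 49.9 CPM with sgNC (7.5-fold higher, adjusted p 0.000357). The NF-kB subunits NFKB2 and RELB rose 1.82-fold and 2.21-fold, TNFAIP2 rose 2.63-fold and the macrophage growth factor CSF1 6.69-fold (1.93 to 12.9 CPM). Interferon-stimulated genes gave 27 higher and 3 lower of 52 (51.9% higher, median 0.62). IFI27 rose from 0.798 to 3.56 CPM, PARP12 from 8.64 to 16.2 CPM and the regulator IRF1 from 23.0 to 39.9 CPM. These counts leaned on 1 control library: without sgNC replicate 1 the interferon list gave 8 higher and 1 lower, the NF-kB list 8 and 0 and the antigen presentation list 7 and 1. The 3 falls of the interferon list became 1 without sgDual2 replicate 1, sgDual2 replicate 2 or sgDual3 replicate 2 and 0 without sgNC replicate 2. Targets of NRF2, the oxidative stress factor, gave 13 higher and 1 lower of 25 (median 0.51), and 7 and 1 without that library. The ferritin chain FTH1 rose 1.83-fold (3749 to 6862 CPM), TXNRD1, thioredoxin reductase, 1.91-fold (815 to 1558 CPM) and GCLC, of glutathione synthesis, 1.89-fold.

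Proliferation genes were lower where they passed the test. Of 48 DNA replication and S phase genes 43 fell (89.6%) and 0 rose, with a median log2 fold change of -0.62. MCM7, a subunit of the replicative helicase, was at 241 and 208 CPM with sgDual2, 256 and 227 CPM with sgDual3 and 438 and 383 CPM with sgNC (1.76-fold lower, adjusted p 8.43e-06). RFC4 and PCNA, the clamp loader and the sliding clamp, fell by 0.83 and 0.56. Of 54 mitosis genes 49 fell (90.7%) and 0 rose (median -0.51). CDC20, which triggers anaphase, was at 88.9, 78.4, 92.9 and 90.6 CPM with sgDual and at 206 and 169 CPM with sgNC (2.14-fold lower), NCAPD2, of condensin, fell 1.75-fold, and MKI67, the Ki-67 antigen, fell 1.46-fold (1003 to 687 CPM). In no member of either list was every sgDual library above both controls.

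Growth genes followed. Of 40 ribosome biogenesis genes 37 fell (92.5%) and 0 rose (median -0.56): BOP1 and PES1, of large subunit assembly, fell 1.74-fold and 1.58-fold, and NCL, nucleolin, 1.54-fold (1416 to 922 CPM). Without sgNC replicate 1 the count was 15, and for replication and mitosis it was 32 and 41. MYC, which drives these genes in many cells, fell by 0.61 on the log2 scale (264 to 173 CPM, adjusted p 0.000627). The CDK inhibitor CDKN2B was at 114, 135, 96.7 and 120 CPM with sgDual and at 22.2 and 32.2 CPM with sgNC (4.29-fold higher, adjusted p 8.99e-06). It belongs to a G1 list of 7 higher (22.6%) and 6 lower (19.4%) of 31, near the 17.8% each way over all genes tested. Nuclear genes of oxidative phosphorylation gave 35 lower and 0 higher of 76 (median -0.21), led by ATP5MC1 of the ATP synthase (49.8 to 27.5 CPM), with 7 lower without sgNC replicate 1 and 21 without sgNC replicate 2. Of 78 cytosolic ribosomal proteins 4 were lower and 0 higher (median -0.10), with 2 lower without either sgDual2 library, 1 without sgNC replicate 1 and 0 without sgNC replicate 2. With sgNC replicate 1 left out, the G1 list gave 3 higher and 3 lower.

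**Figure D3:**
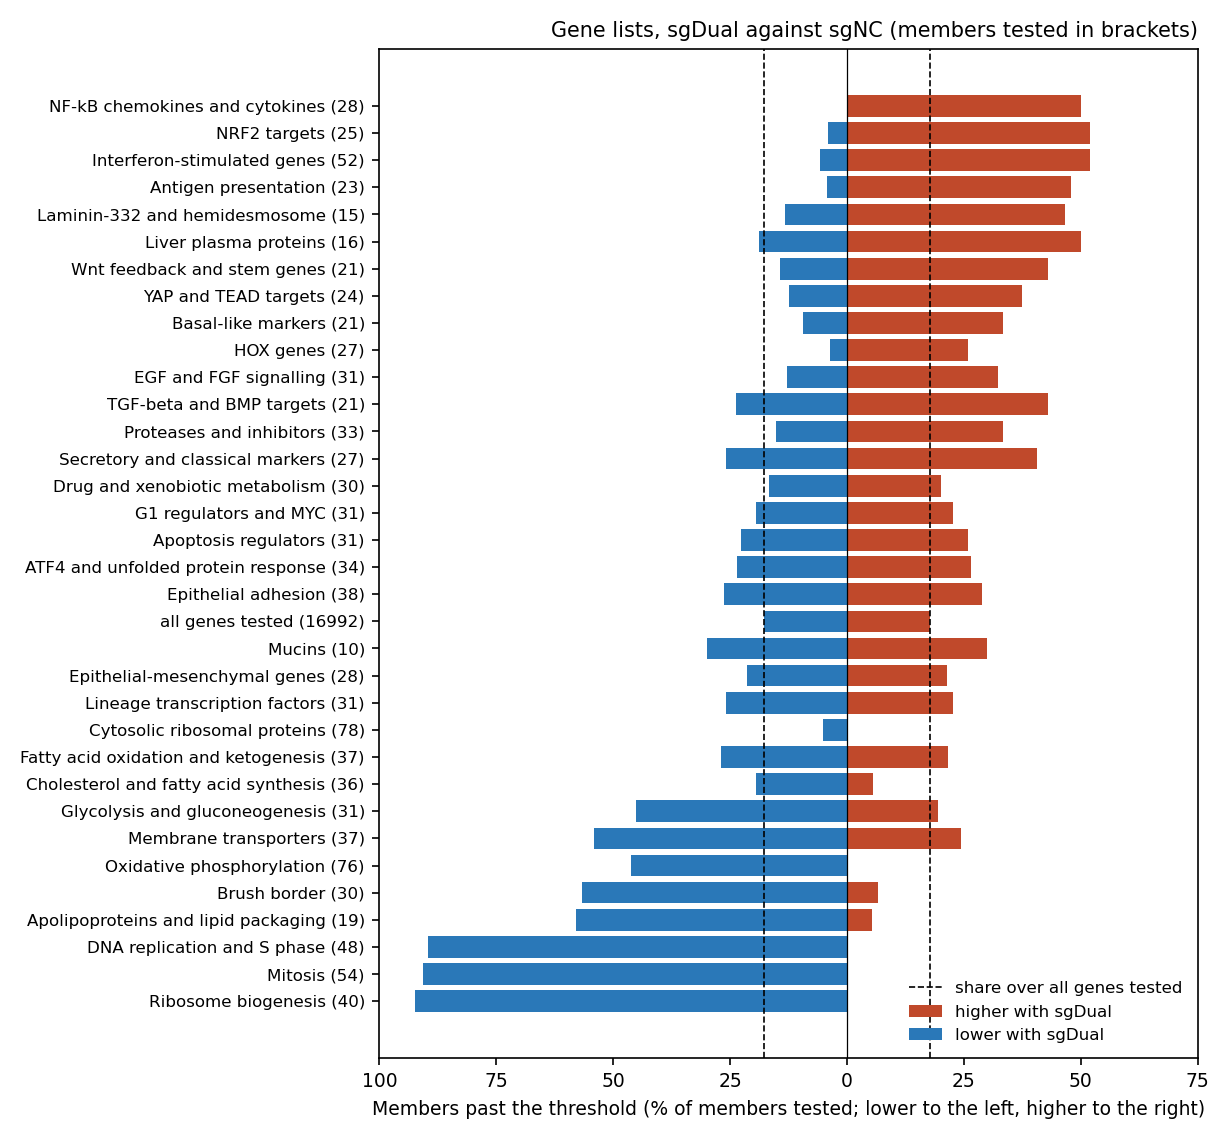
Share of each gene list past the threshold in sgDual against sgNC, in percent of the members tested, lower to the left and higher to the right, with the share over all genes tested (17.8% each way) as dashed lines. Ribosome biogenesis, mitosis and DNA replication reach about 90% lower, whereas the interferon, NRF2 and NF-kB lists lean to the higher side.

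Signalling lists held calls in both directions. In the TGF-beta and BMP list, with 9 higher and 5 lower of 21, the ligand BMP4 rose 3.02-fold (349, 344, 410 and 421 CPM with sgDual, 131 and 121 CPM with sgNC, adjusted p 9.74e-08), while its usual targets ID1 and SMAD6 fell by 0.51 and 0.70. Among Wnt and stem genes, 9 higher and 3 lower of 21, the receptor LGR5 rose 2.61-fold (41.2 to 108 CPM) and the factor SOX4 3.57-fold (24.9 to 89.1 CPM), and CD44 did not pass (0.06). In the EGF and FGF list, 10 higher and 4 lower of 31, the receptor FGFR4 fell 6.72-fold (42.3 and 46.8 CPM with sgNC, 6.03 to 7.21 CPM with sgDual) while FGFR2 rose 5.25-fold (2.56 to 13.4 CPM), though not past the threshold without sgNC replicate 1 (adjusted p 1.85e-06 to 0.0571 over the alternatives). EGFR and ERBB2 rose by 0.53 and 0.59. YAP and TEAD targets gave 9 higher and 3 lower of 24, and IGFBP3, a binding protein for insulin-like growth factors, rose 5.49-fold (827 to 4537 CPM). Without sgNC replicate 1 the TGF-beta list gave 8 higher and 3 lower, the Wnt list 6 and 2, the EGF list 6 and 3, and the YAP list 6 and 1.

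Proteases gave 11 higher and 5 lower of 33. PLAT, tissue plasminogen activator, was at 4314, 4561, 3630 and 3862 CPM with sgDual and at 1161 and 1465 CPM with sgNC (3.12-fold higher, adjusted p 8.23e-05), and the membrane protease TMPRSS2 rose 5.11-fold (4.73 to 24.1 CPM). Of plasma proteins made by liver, 16 of 46 could be tested, and 8 rose and 3 fell. F5, a coagulation cofactor, rose 6.76-fold (2.54 to 17.2 CPM) and F12 fell from 23.1 to 9.84 CPM. Stress genes of the ATF4 and unfolded protein lists split 9 to 8 of 34, with DDIT3 2.43-fold higher, and apoptosis genes split 8 to 7 of 31, with the BH3 protein BMF 6.95-fold higher (1.29 to 9.0 CPM). HOX genes gave 7 higher and 1 lower of 27. The fall in the HOX list was not called without sgDual2 replicate 1, either sgDual3 library or either sgNC library. The log2 fold change of BMF was 2.80, and 3.39 without sgNC replicate 2. Without sgNC replicate 1 the proteases gave 7 higher and 3 lower, the liver proteins 3 and 2, the stress genes 4 and 4, the apoptosis genes 4 and 4 and the HOX genes 4 and 0. Without sgNC replicate 2 the falls were 3 among proteases, 1 among liver proteins and 3 among stress genes.

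The 2 dual guides were compared with each other. Of the 6048 genes called on the mean of both guides, 4859 (80.3%) passed for each guide alone, where the guides share the same sgNC libraries and the choice of genes favours such agreement. Tested directly, 150 genes differed between the guides (0.883% of 16992), 71 higher with sgDual2 (0.418%) and 79 higher with sgDual3 (0.465%). By at least 3 on the log2 scale, 9 were higher with sgDual2 and 3 with sgDual3. Leaving out any 1 of the 4 sgDual libraries brought the count to between 53 and 71, and a replicate block raised it to 558.

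Among genes higher with sgDual2, the commonest class was a gene lower than sgNC with sgDual3 only, 30 of 71. PLBD2, a lysosomal protein, was at 161 and 155 CPM with sgDual2, 6.54 and 13 CPM with sgDual3 and 98.1 and 91.9 CPM with sgNC. TMC6, a membrane protein, was at 19.8 and 18.4 CPM with sgDual2, 0.388 and 1.20 CPM with sgDual3 and 9.82 and 11.4 CPM with sgNC. The log2 differences of TMC6 and PLBD2 were 4.56 and 4.01, and that of TMC6 was 5.61 without sgDual3 replicate 2, where that of PLBD2 was 4.595. FBXO41, PXDC1 and MRI1 were also far lower with sgDual3, each between 30.5 and 39.1 CPM with sgDual2 and between 1.58 and 3.65 CPM with sgDual3. Their sgDual2 level lay nearer to sgNC, with log2 fold changes of 0.375, 0.095 and 0.161. In PLBD2 and TMC6 these were 0.734 and 0.848. In these 5 genes sgDual3 stood apart from both other guides by more than the spread of any pair.

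Of the 79 genes higher with sgDual3, 30 were higher than sgNC with both guides and 27 with sgDual3 only. CD74, the invariant chain of class II presentation, was at 4.85 and 4.97 CPM with sgDual2, 12.1 and 13.9 CPM with sgDual3 and 1.17 and 1.32 CPM with sgNC. BCAM, a laminin receptor, was at 5.28 and 4.80 CPM with sgDual2, 14.8 and 13.9 CPM with sgDual3 and 3.64 and 4.59 CPM with sgNC, a difference between guides not past the threshold without either sgDual2 library or sgDual3 replicate 1 (adjusted p 3.08e-18 to 0.0775 over the alternatives). FBP1, a gluconeogenic enzyme, was at 7.63 and 13.2 CPM with sgDual2, 139 and 145 CPM with sgDual3 and 94.6 and 125 CPM with sgNC, so that only sgDual2 lay below the control. HTRA1 and ZNF488 had sgDual2 below and sgDual3 above the control range. Mucins, picked after their values were seen, also split: MUC1 was at 31.5 and 31.0 CPM with sgDual2 and at 3.46 and 4.30 CPM with sgDual3 (sgNC 3.80 and 6.39 CPM, adjusted p 0.000765), and MUC5AC at 0.804 and 1.13 CPM with sgDual2 and 7.37 and 6.4 CPM with sgDual3.

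**Figure D4:**
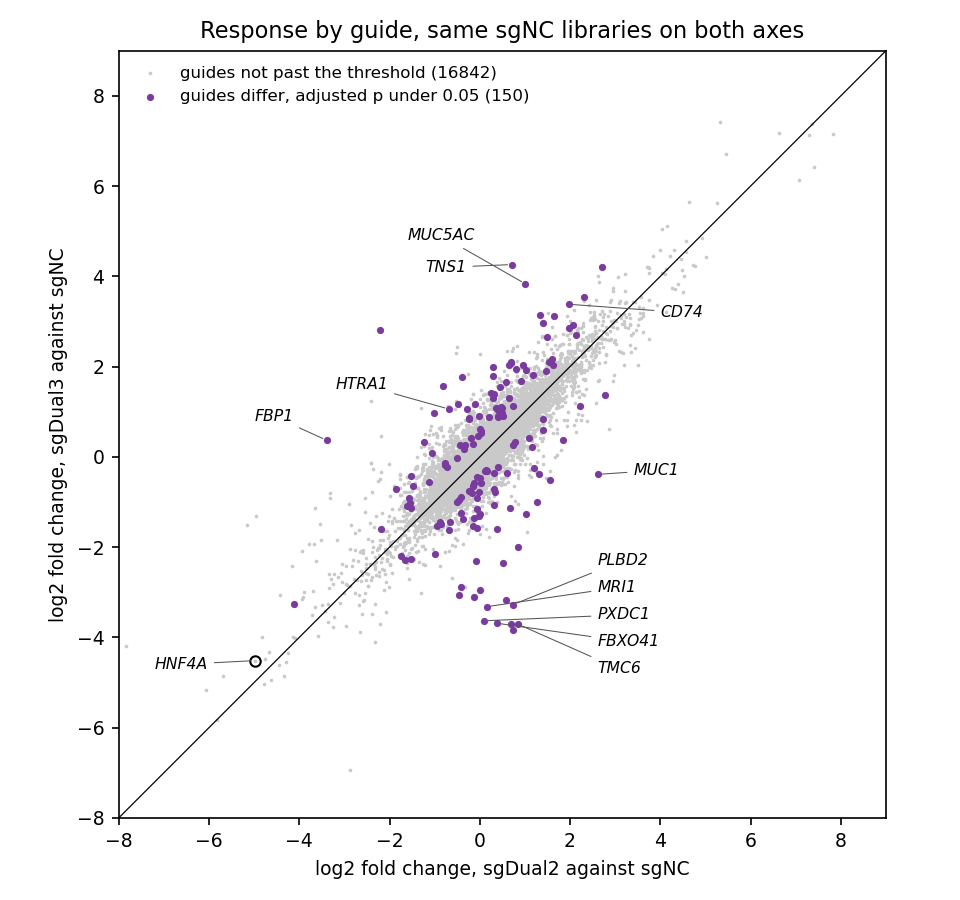
Log2 fold change against sgNC for sgDual2 (horizontal) and sgDual3 (vertical), 1 point per gene tested, with the 150 genes that differed between the guides in purple and the line of equal change. The same 2 sgNC libraries enter both axes, which by itself lines the points up along the diagonal. PLBD2, MRI1, PXDC1, FBXO41 and TMC6 sit far below the line and FBP1, MUC5AC and TNS1 above it.

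The guides for both isoform classes were next set beside the guides for 1 class. Against sgP1, 6505 genes differed (38.3%), and against sgP2, 7876 (46.4%). The single targets themselves moved 45 genes (0.265%, 0.1% higher and 0.165% lower) and 581 genes (3.42%, 1.66% higher and 1.76% lower) past the threshold against the same sgNC libraries. In this fit the 2 guides of a target form 1 group, so differences between them widen the spread and can lower these counts. On the second principal component sgP1E lay at 16.2 and 13.9 and sgP1J at -35.9 and -36.4. A small count is thus not a measure of how little a single target did. All 20 of the largest falls and all 20 of the largest rises were past the threshold in the same direction against sgP1 and against sgP2. Of the 20 falls, 20 were on the same side of sgNC with sgP1 and 14 with sgP2, and of the 20 rises 20 and 15. As these comparisons share libraries, the counts are given side by side and no overlap is drawn from them. The falls and rises were picked by their size between sgDual and sgNC, so the choice itself favours such agreement. The share of all genes on the same side of sgNC is not given here.

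By gene list, the called proliferation genes were lower with sgDual than with either single target. Over all genes tested, 18.6% were higher and 19.7% lower against sgP1, and 22.8% and 23.5% against sgP2. Against sgP1, 44 of 48 replication genes, 50 of 54 mitosis genes and 34 of 40 ribosome biogenesis genes were lower and 0 were higher. Against sgP2, the numbers were 39, 50 and 35. Of 30 brush border genes there were 16 lower and 3 higher against each. Of 52 interferon genes 24 were higher and 1 lower against sgP1 and 30 and 4 against sgP2. Of 25 NRF2 targets 12 were higher and 1 lower against sgP1, and 4 and 4 against sgP2, and the difference between these comparisons was not tested. Of 27 HOX genes 9 were higher and 2 lower against sgP1, and 15 and 1 against sgP2.

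The opposite manipulation was available in Panc10.05 and BxPC3, which were fitted apart from AsPC-1 and share no library with it. Counted HNF4A averaged 0.149 CPM with NC, 11.8 CPM with P1-a2 and 37.6 CPM with P2-a8 in Panc10.05. In BxPC3 these means were 0.771, 10.7 and 13.4 CPM. In AsPC-1 they were 213 CPM with sgNC and 7.99 CPM with sgDual, each line being scaled on its own. The lines and isoforms thus differ in level as well as in direction. With P1-a2 in Panc10.05, 10699 genes passed against NC (62.0%), and of the genes tested in both lines 1133 that fell in AsPC-1 rose there (39.9% of the AsPC-1 falls and 23.4% of the induced rises). Another 1154 that rose in AsPC-1 fell there (42.1% and 23.9%), while 921 were lower in both and 746 higher in both. With P1-a2 in BxPC3 (32.0% called), 741 and 683 genes were opposite and 427 and 499 moved the same way. With P2-a8 the opposite genes were 703 and 731 in Panc10.05 (46.2% called), where 903 and 830 moved the same way, and 193 and 166 in BxPC3 (6.99% called, 4.3% higher and 2.69% lower), where 49 and 142 did. Over all genes tested, 31.5% were higher and 30.5% lower with P1-a2 in Panc10.05, and 17.1% and 14.9% in BxPC3. With P2-a8 in Panc10.05 these shares were 23.7% and 22.5%, and the opposite genes, 24.7% of the AsPC-1 falls and 26.7% of the rises, lay near them and below the shares that moved the same way (31.8% and 30.3%). With P2-a8 in BxPC3 the opposite genes were 6.74% and 5.87% of the AsPC-1 lists. Opposite in both lines under P1-a2 were 436 genes that fell and 310 that rose in AsPC-1. Under P2-a8 these numbers were 113 and 46. Unlike the counts above, the both-line counts leave out unnamed genes and those averaging under 5 CPM. How many such genes moved the same way in both lines is not given here, so no excess is read from these counts. Without sgNC replicate 1 the opposite genes under P1-a2 came to 1070 in all in Panc10.05 and 683 in BxPC3, from 2287 and 1424, and under P2-a8 to 727 in Panc10.05, from 1434. The 359 opposite genes under P2-a8 in BxPC3 became 220 and 170 without the first and the second replicate of NC in that line.

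Some of the genes lost with sgDual and gained with induction are given by library. MOGAT3 was at 0.753 and 0.769 CPM in Panc10.05 NC, 33.4 and 37.8 CPM with P1-a2 and 5.53 and 6.37 CPM with P2-a8. In BxPC3 it was at 0 and 0.149 CPM in NC, 31.5 and 43.2 CPM with P1-a2 and 8.12 and 9.86 CPM with P2-a8. MUC17 was at the floor in both NC groups and reached 53.0 and 74.3 CPM with P1-a2 and 29.5 and 34.5 CPM with P2-a8 in BxPC3, but 6.98 and 8.68 CPM and 0.423 and 0.769 CPM in Panc10.05. ANPEP followed the line as well, at 140 and 171 CPM with P1-a2 in BxPC3 and at 1.05 and 1.65 CPM in Panc10.05. HHLA2, at the floor in both NC groups, reached 67.2 and 69.9 CPM with P1-a2 in Panc10.05 and 43.0 and 56.3 CPM in BxPC3, with lower values under P2-a8 (27.8 and 29.1, and 3.78 and 4.23 CPM).

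The genes gained with sgDual and lost with induction included inflammatory members. LCN2, 7.5-fold higher with sgDual, was at 62.7 and 67.0 CPM in BxPC3 NC, 16.9 and 22.4 CPM with P1-a2 and 15.5 and 17.7 CPM with P2-a8. In Panc10.05 it was at 9.01 and 11 CPM in NC, 1.87 and 2.02 CPM with P1-a2 and 6.73 and 8.76 CPM with P2-a8. TNFAIP2 was at 168 and 193 CPM in BxPC3 NC and at 54.4 and 59.3 CPM with P1-a2. PTGES, a prostaglandin synthase that rose with sgDual from 34.6 to 118 CPM, fell with P1-a2 in Panc10.05 (15 and 18.4 to 4.49 and 5.87 CPM) but was at 25.0 and 27.0 CPM with P2-a8 there.

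**Figure D5:**
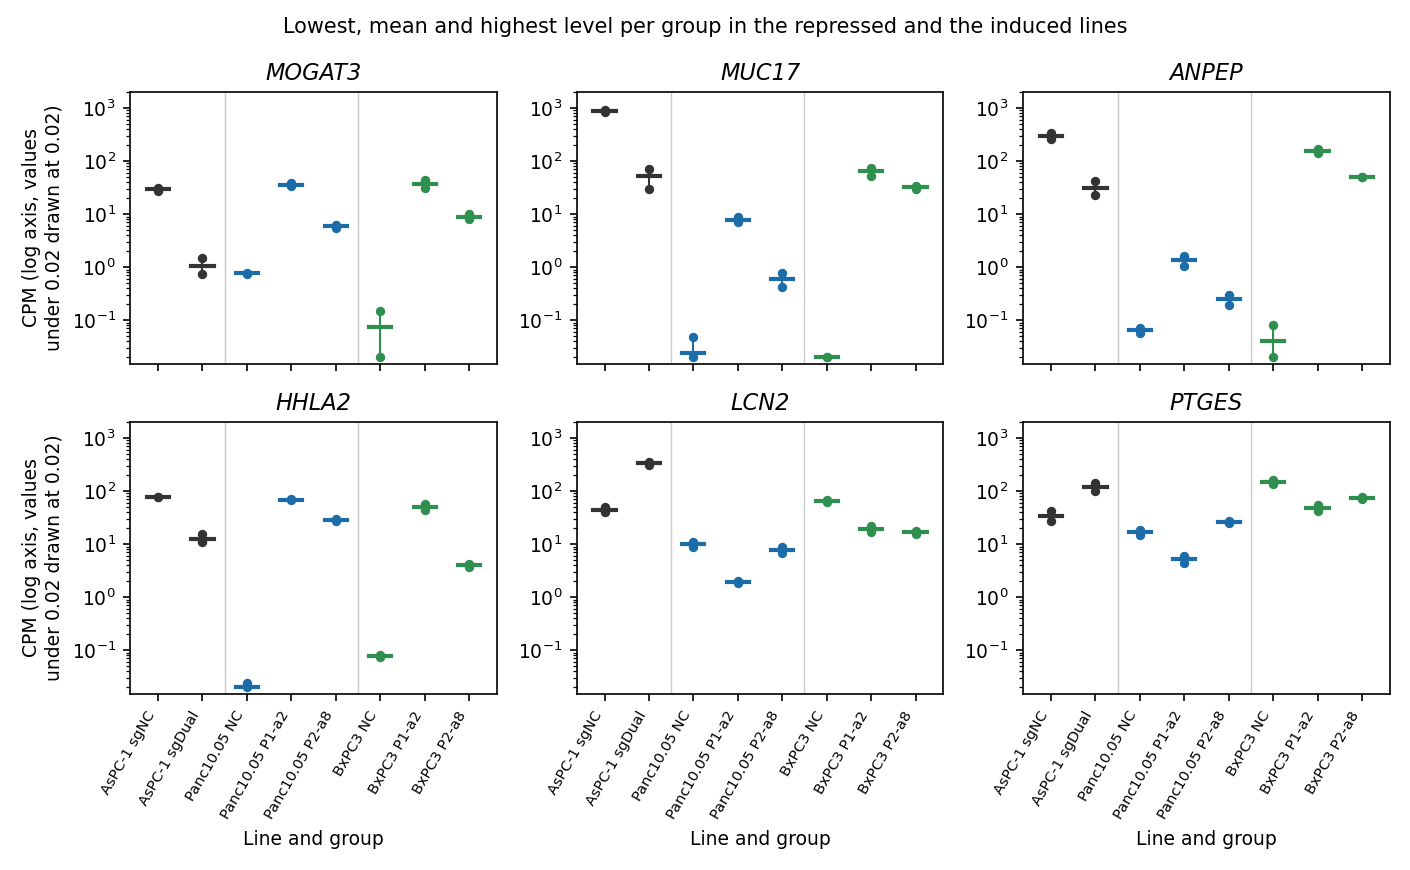
Lowest, mean and highest level in CPM on a log axis of 6 genes in the repressed AsPC-1 groups and in the induced Panc10.05 and BxPC3 groups. MOGAT3, MUC17, ANPEP and HHLA2 are lower with sgDual than with sgNC and higher with P1-a2 than with NC in BxPC3, while MUC17 and ANPEP with P1-a2 in Panc10.05 reach 8.68 and 1.65 CPM at most, each line being scaled on its own, and LCN2 and PTGES have the opposite order, with PTGES under P2-a8 in Panc10.05 above its control.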

How the data were processed

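RNA was measured by poly(A) sequencing on a directional kit with paired reads, per the labels. The deposited values are raw counts per gene, 1 table per cell line. The submitters' processing notes name cutadapt 1.16, STAR 2.7.9a, featureCounts 1.6.3 and DESeq2 1.36.0 with GRCh38. The strand option and the annotation release of the counting are not given in the sources used here. Values with n = 2 or n = 4 are means over libraries.

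From the counts, edgeR 4.0.16 in R 4.3.3 fitted all 14 AsPC-1 libraries in 4 groups by target (filterByExpr, TMM scaling, robust quasi-likelihood F test), with Benjamini-Hochberg adjustment over all 16992 genes and a threshold of 0.05. The guides were compared in a fit of 7 groups by guide, and Panc10.05 and BxPC3 were fitted each in its own table. CPM used TMM-scaled library sizes. Fold changes in words are powers of the fitted log2 values, and the SE is the absolute log2 value over the root of F. The test was checked on simulated counts. Their spread was set to that between replicates of a guide, so the check does not cover differences between the guides of a target. Coordinates came from GENCODE release 29, which placed 92.84% of 62754 AsPC-1 identifiers, and promoters from RefSeq. Symbols came from a separate list of gene names, which covered 99.91% of these identifiers. Depth was 31394018 to 37015709 counts in the 6 libraries compared, and the floor of 3 counts covers counting error only.

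Genes were named by rule: the 20 largest falls and rises with a mean of at least 5 CPM and no overlap, up to 6 called members of each list with at least 1 CPM beside its best expressed members, the 5 largest guide differences each way with a mean of at least 5 CPM and the 10 clearest opposite genes each way. Names outside the rule are a few list members, neighbours of HNF4A, MUC1, MUC5AC and TNS1, chosen after their values were seen. A few genes of the lists are not reported here. The members and lists were chosen with earlier results of these data known. Alternatives were other scaling, no filter on low counts, DESeq2 1.42.0, other sets of libraries, a limit on size, a replicate block and leaving out each library or guide. Figures were drawn with matplotlib 3.10.9.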

Additional observations from a re-analysis of the deposited data

Results flagged for a closer look

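In 3 named genes 1 of the 4 sgDual libraries stood apart from the other 3 by Dixon's test. CORO6 was at 10.9 CPM in its highest library and at 8.44, 8.55 and 8.59 CPM in the others. NTN4 was at 43.2 CPM beside 38.8, 39.0 and 39.1 CPM, and PRODH2 at 2.40 CPM beside 1.46, 1.52 and 1.58 CPM. Chance sets apart about 5% of such groups, and the sgNC values of these genes lie outside the whole sgDual range.

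The other results for a closer look are genes whose response differed between the dual guides by the direct test, given as the log2 difference of sgDual2 minus sgDual3. Lower with sgDual2 were FBP1 (-3.76), TNS1 (-3.55), MUC5AC (-2.83), HTRA1 (-1.75), ZNF488 (-1.55), BCAM (-1.51), CD74 (-1.40), KRT7 (-1.16) and ADIRF (-0.86). Higher with sgDual2 were TPM2 (0.74), MUC1 (3.01), MRI1 (3.48), PXDC1 (3.73), PLBD2 (4.01), FBXO41 (4.06) and TMC6 (4.56). Without sgDual2 replicate 1 the difference in TNS1 was -4.15.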

How the results depend on the processing

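The 6048 genes called in sgDual against sgNC were 5241 with no filter on low counts, 6107 with DESeq2, 7591 with only the sgDual and sgNC libraries, 7290 with 7 groups by guide, 4418 without sgDual2 and 4460 without sgDual3. They were 1539 with the limit of 1 on the log2 scale, and 2775 to 5555 when 1 library was left out. Scaling by total counts or DESeq2 size factors moved the median change of all genes by no more than 0.005 from 0. The 150 genes that differed between guides became 417 with no filter and 53 to 71 with 1 library left out. With the limit of 1 in both comparisons the opposite genes were 337 and 182 for P1-a2 and P2-a8 in Panc10.05 and 187 and 91 in BxPC3. Leaving out 1 library gave 1070 to 2186 and 727 to 1314 in Panc10.05, and 683 to 1317 and 170 to 338 in BxPC3. Of 153 results past the threshold for named genes, some of them differences between guides, 140 passed in every alternative refitted for them and 0 reversed. The limit of 1 on the log2 scale was not among these alternatives. Leaving 1 library in sgNC assumes that it varies like the other groups. Replicate numbers are shared by the titles, but the labels do not say that a number marks a shared day or culture, and in 21 pairs of guides same-numbered libraries deviated together with correlations of 0.077 to 0.339, 15 of them over 0.1. With the replicate block the counts were 6754 against sgNC, 7123 against sgP1, 8414 against sgP2, 558 between guides and 779 opposite genes under P2-a8 in BxPC3. Genes at the floor of 3 counts cannot be sized at this depth.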
